A study of Homo sapiens with 4 samples.

Results

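A block in band 6p22 of human chromosome 6 held 846 of the 211947 regions that PAR-CLIP assigned to Argonaute proteins in HEK293 cells. The block, on the short arm, is named for the main histone gene cluster and the large transfer RNA (tRNA) gene cluster. A region was counted when its start lay from 26 to 28.9 Mb on chromosome 6 of the genome build hg19, on either strand. The rule uses position only, so regions of any other gene in the block were counted too. HEK293 is a human embryonic kidney cell line, and PAR-CLIP crosslinks RNA that carries a photoreactive uridine analogue to the protein that binds it and sequences the RNA recovered with that protein. AGO1 was represented by 3 libraries from cells that stably expressed a His/FLAG/HA-tagged protein, recovered with a FLAG antibody. Those cells were given 200 µM 4-thiouridine for 16 h. AGO2 was represented by 1 library, recovered with the antibody AGO2 11A9 after 100 µM 4-thiouridine for 16 h. Its own labels name no tag, whereas the series text speaks of tagged lines for both proteins. All cells were crosslinked at 365 nm. The data were 1 pooled list with 1 score per region, a whole number from 1 to 1000 whose meaning no source used here gives. No value could therefore be set by library or by protein, none has a replicate error, the read depth is unknown, and no test over samples was possible. Intervals in brackets are Wilson 95% intervals of a share and cover counting error only.

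Argonaute proteins carry small RNAs, most of them microRNAs, and bring them to target RNAs, whose translation and stability then fall. The histone genes of 6p22 encode the core histones H2A, H2B, H3 and H4 and the linker histone H1. They are short, have no introns, are expressed mainly while DNA is copied, and give messenger RNAs that end in a stem-loop instead of a poly(A) tail. H2A and H2B genes often lie side by side and point away from each other, with a shared promoter between them. The tRNA genes are transcribed by RNA polymerase III into precursors with short extensions at both ends, which are trimmed to the mature tRNA. Fragments of tRNAs are known among the small RNAs of human cells. Both families hold near-identical copies, and the sources used here do not say how reads that match several copies were placed.

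Chromosome 6 holds much of both families. RefSeq tables of GRCh38.p14, used for names, order, lengths and promoter sequences, list 155 of 465 tRNA genes on this chromosome, with a median length of 73 nt (range 71 to 108). They list 55 of 73 protein-coding histone genes there, with a median length of 489 nt (interquartile range 459.5 to 523). The histone genes comprise 6 H1, 12 H2A, 15 H2B, 10 H3 and 12 H4 genes. Those tables are on another build than the regions, so no region was assigned to a gene, and the label of the block could not be checked gene by gene. Shapes and arrangements of the regions are set beside these gene properties below, as descriptions.

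The stretch of DNA between an H2A and an H2B gene that point away from each other is shown here because some loci of the block stand in pairs that point away from each other too, as described further on. Of the 55 histone genes, 50 had an entry in the RefSeq promoter table (250 bases before to 50 bases after the gene start). Among them, 15 neighbouring pairs pointed away from each other, and 9 of these joined an H2A with an H2B gene. For 8 of the 9, both promoter entries overlapped in sequence, which placed 214 to 247 nt (median 241) between the gene starts. None of the other 6 pairs overlapped in this way. The 2 pairs with the widest spacing among the 8 are printed below from the plus strand of GRCh38.p14, from the base after the start of the minus-strand gene to the base before that of the plus-strand gene. Capitals mark CCAAT and TATAAA on either strand, the letters of the CCAAT box and of a TATA box, both known promoter elements.
H2BC11 to H2AC11, chr6:27132796-27133042, 247 nt: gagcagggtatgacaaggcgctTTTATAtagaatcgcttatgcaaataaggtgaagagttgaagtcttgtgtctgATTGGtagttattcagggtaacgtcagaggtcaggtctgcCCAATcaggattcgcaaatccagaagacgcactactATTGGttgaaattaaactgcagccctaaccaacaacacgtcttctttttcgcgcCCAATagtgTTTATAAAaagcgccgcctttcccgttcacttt
H2BC4 to H2AC6, chr6:26123927-26124171, 245 nt: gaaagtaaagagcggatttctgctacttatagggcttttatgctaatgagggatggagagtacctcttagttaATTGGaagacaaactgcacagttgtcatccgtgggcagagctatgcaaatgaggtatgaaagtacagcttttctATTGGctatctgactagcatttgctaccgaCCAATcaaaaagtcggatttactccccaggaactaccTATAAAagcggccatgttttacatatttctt
CCAAT was present in all 8 stretches and TATAAA in 7 of them. Over the 300-base promoter entries, 43 of the 50 chromosome 6 histone genes held CCAAT (86.0%, interval 73.8 to 93.0), against 34.6% of all 35116 promoters in the table. TATAAA was held by 33 of the 50 (66.0%, 52.2 to 77.6), against 11.5% of all promoters. In the 8 pairs with overlapping entries, a match in the shared bases counts for both genes, so the 50 entries are not independent. These matches describe the letters of the DNA and say nothing of Argonaute.

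The block had the same median score as the rest of the nuclear genome and a larger share of high scores. Its 846 regions made up 0.399% of the list and carried 1.16% of its summed score. The median score was 3 (interquartile range 2 to 10), and the median over the other 210826 nuclear regions was also 3 (2 to 5). Score 1 was held by 112 members (13.2%), against 14.1% elsewhere, and score 2 by 204 (24.1%), against 35.3%. High scores, of at least 100, were seen in 24 members (2.84%, 1.91 to 4.19), where the background over the other nuclear regions was 0.238% (0.218 to 0.259). Scores of at least 50 were seen in 67 members (7.92%, 6.28 to 9.94), with a background of 0.889% (0.850 to 0.930). The block was known to hold many high scores when it was chosen, so these shares describe it and are no test. How much of a score reflects binding and how much the amount of each RNA cannot be told apart, because no RNA level was measured.

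The 24 high-score members held 38.3% of the block's summed score of 13516. The other nuclear regions of high score held 8.16% of theirs. The 2 highest members alone held 12.9% of the block's sum, a lower bound because 1 of them stood at the ceiling of 1000. Without these 2, high scores were still found in 2.61% of members (1.73 to 3.92).

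Members were somewhat wider than other regions. Their median was 34 nt (interquartile range 27 to 51, range 18 to 330), against 32 nt (25 to 43) elsewhere. Widths of 60 to 100 nt, the class that holds the length of a mature tRNA, made up 13.8% of the members and 7.97% of the other nuclear regions. Width and score are related over the whole list, so high scores were also counted within width classes. Among members of 60 to 100 nt, 8 of 117 had a high score (6.84%, 3.51 to 12.9), against 0.929% (0.795 to 1.09) of 16793 others. Among members wider than 100 nt, 10 of 39 did (25.6%, 14.6 to 41.1), against 7.09% (6.30 to 7.98) of 3623 others. In the class of 30 to 59 nt, 6 of 411 did (1.46%, 0.671 to 3.15), against 0.0772% (0.0620 to 0.0960). The block's share was the higher one in these 3 classes. Regions are not replicates, and the block was chosen with its high scores known, so this too is a description and no test. At 15 to 29 nt none of 279 members had a high score, which allows a share of up to 1.36% (Wilson upper limit; 1.08% by the limit of 3 counts), against 0.00922% elsewhere, so no difference was detectable in that class.

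**Figure D1:**
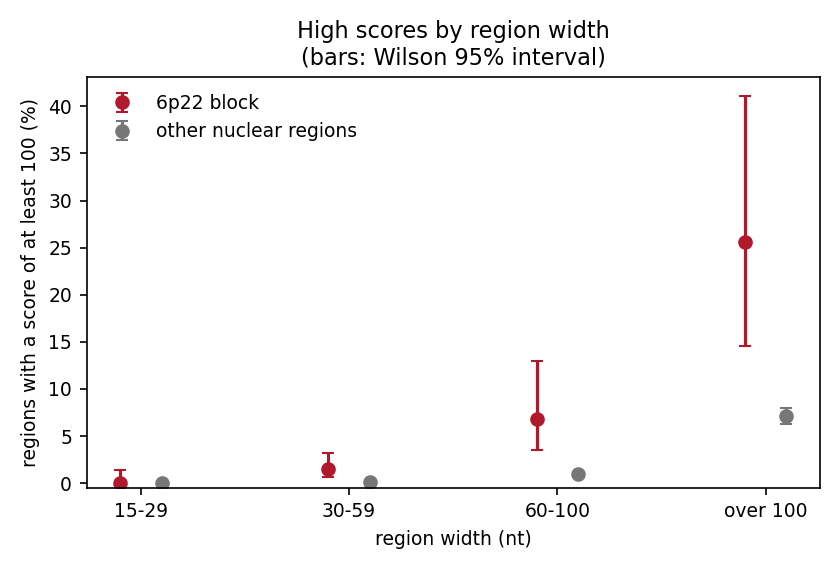
Share of regions with a score of at least 100 (percent, y axis) by region width in nt (x axis), for the 846 regions of the block and the 210826 other nuclear regions; points are shares and bars Wilson 95% intervals. The block lies above the other regions from 30 nt upward, with 6.84% against 0.929% at 60 to 100 nt and 25.6% against 7.09% above 100 nt.

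Along the chromosome the members fell into 3 stretches, separated by gaps of more than 100 kb without a region on either strand. The rule for the stretches was chosen after the positions were seen. The first stretch ran from 26000314 to 26758513 with 309 regions, the second from 26923937 to 27870765 with 289, and the third from 28053341 to 28456852 with 248. High scores were found in 8 regions of the first (2.59%, 1.32 to 5.02) and 16 of the second (5.54%, 3.44 to 8.80). The third had none, which allows a share of up to 1.53% (Wilson upper limit; 1.21% by the limit of 3 counts), and its highest score was 87. Its median score was 2.5, against 4 and 5 in the first and second. The third stretch was nevertheless the most densely filled, with 61.5 regions per 100 kb, against 40.8 and 30.5. Density and score of regions thus had different orders over the 3 stretches.

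The upper end of the block was empty. The last member ended at 28456852, and the next region on chromosome 6 began at 29916848, so the last 0.443 Mb of the block held none, within an empty gap of 1.46 Mb. The 5 Mb above the last member held 6 regions, with scores of 1 to 3, against 996 in the 5 Mb below and 708 in the next 5 Mb above. The list also held 9 regions on 4 alternative haplotype contigs of chromosome 6, with scores of up to 94. The build hg19 carries several haplotype copies of the major histocompatibility complex, which lies next to this block, and the part of reads matching more than 1 copy was not tested. Any tRNA genes in this upper end therefore have no value in the list, and nothing was measured of them here. The 2.9 Mb above the block held 2 regions, and the 2.9 Mb below it held 152, of which 1 had a high score (0.658%, 0.116 to 3.63).

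At the edges of the rule, the region just inside the lower end (26000314 to 26000341, plus strand) had a score of 2, and the region just outside (25999439 to 25999467, plus strand) a score of 1. At the upper end the last region inside (28456826 to 28456852, minus strand) had a score of 11, and the first outside (29916848 to 29916866, minus strand) a score of 1. All 4 were at most 29 nt wide.

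**Figure D2:**
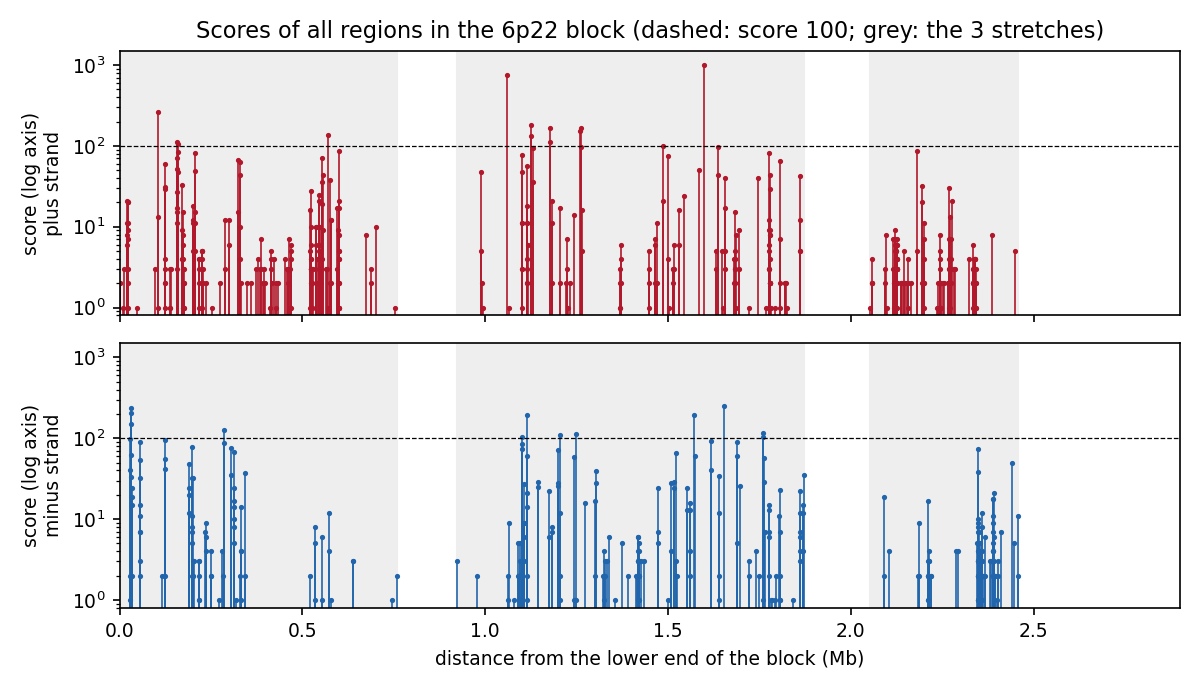
Score of each of the 846 regions (log axis) by distance from the lower end of the block in Mb, plus strand above and minus strand below; grey bands mark the 3 stretches and the dashed line a score of 100. The 2 highest regions, at 1000 and 747, lie in the second stretch on the plus strand, and the third stretch stays below 100.

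Windows of 100 kb showed the number and score of regions in finer steps. Of 29 windows, 23 held a region and 10 held at least 1 high score. The window from 26.5 to 26.6 Mb held 89 regions, 80 of them on the plus strand, with 1 high score and a summed score of 861. The window from 28.3 to 28.4 Mb held the most regions, 97, of which 72 were on the minus strand, and had a summed score of 484 with no high score. The window from 27.1 to 27.2 Mb held 48 regions, evenly split with 25 on the plus and 23 on the minus strand. That window had the highest summed score, 1853, and 6 high scores. Both of the most crowded windows thus had a main strand, while the window with the highest sum was split between the strands.

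**Figure D3:**
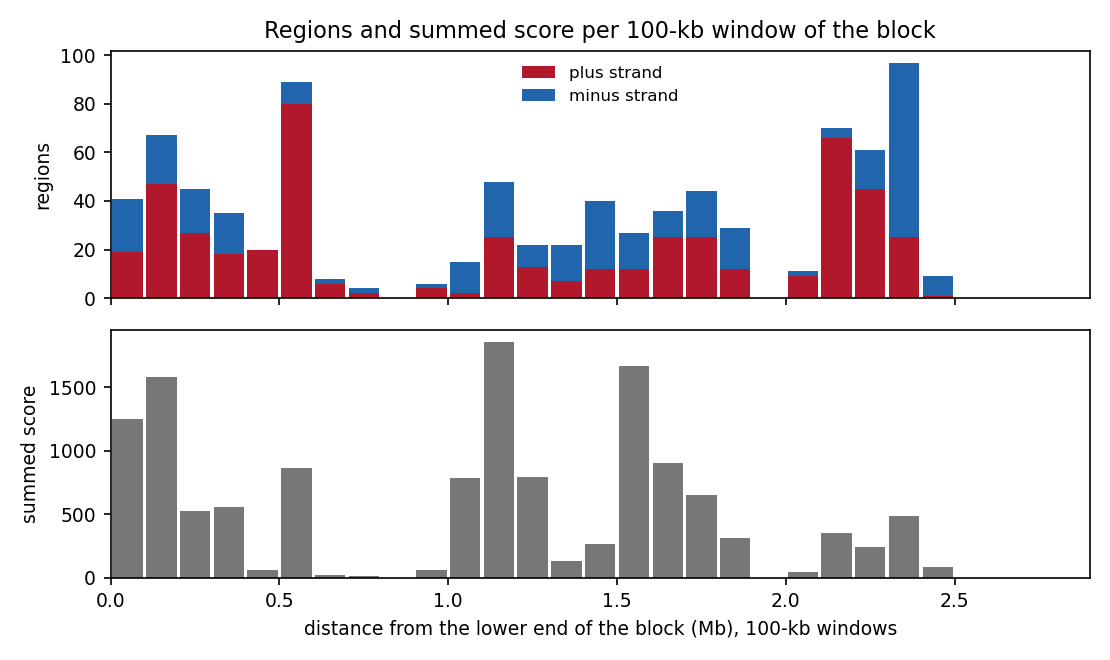
Number of regions by strand (upper panel) and summed score (lower panel) in each 100-kb window, by distance from the lower end of the block in Mb. The window with 97 regions has a summed score of 484, and the window with 48 regions one of 1853.

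High-score members were split evenly by strand, 12 on each. The highest lay at 27599184 to 27599336 on the plus strand, 153 nt wide, with a score of 1000. The next lay at 27059514 to 27059602 on the plus strand, 89 nt wide, with a score of 747. Both were alone, with no other region on their strand within 1000 nt. On the minus strand the highest score was 252, in a region of 45 nt (27652448 to 27652492), which was also alone. A further lone region on the minus strand, 124 nt wide, had a score of 193 (27570338 to 27570461), and lone regions on the plus strand had scores of 166 (27263205 to 27263368, 164 nt) and 151 (27258399 to 27258497, 99 nt). These 6 were the isolated ones among the 24 high-score members (25%, 12 to 44.9), where the background was 8.98% (6.78 to 11.8) of 501 other nuclear regions of high score. All 6 lay in the second stretch.

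The other 6 of the 12 highest members had neighbours. A region of 330 nt on the plus strand (26104235 to 26104564), the widest member, had a score of 265. On the minus strand, regions at 26031808 to 26031895 and 26031900 to 26031998 had scores of 239 and 207 and lay 4 nt apart, so whether they are separate sites was not tested. Regions at 27114550 to 27114635 on the minus strand, 27125884 to 27125929 on the plus strand and 27177692 to 27177737 on the plus strand had scores of 192, 182 and 165. The remaining 12 high-score members had scores from 103 to 150 and widths from 38 to 139 nt. Of the 24, 8 were 60 to 100 nt wide (33.3%, 18.0 to 53.3), beside 31.1% (27.2 to 35.3) of the other nuclear regions of high score.

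To describe shapes, regions of a strand with at most 200 nt between them were joined into loci, a distance chosen after the values were seen. This gave 399 loci in the block, of which 51 had a highest score of at least 50. These 51 came in 2 sizes. Short loci, spanning up to 200 nt, numbered 30 (58.8%, 45.2 to 71.2), with spans from 39 to 164 nt and a median of 115.5 nt. Loci of over 200 and up to 1000 nt, called middle-sized, numbered 20 (39.2%, 27.0 to 52.9), with a median span of 501.5 nt (interquartile range 466.5 to 550.25). A single locus was longer, with 1091 nt. Over 1496 other nuclear loci with such a score, 30.3% (28.0 to 32.7) were short, 34.3% (31.9 to 36.7) were middle-sized and 35.4% (33.0 to 37.9) were longer than 1000 nt. Loci longer than 1000 nt were thus rare among the 51 loci of the block, at 1.96% (0.347 to 10.3).

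**Figure D4:**
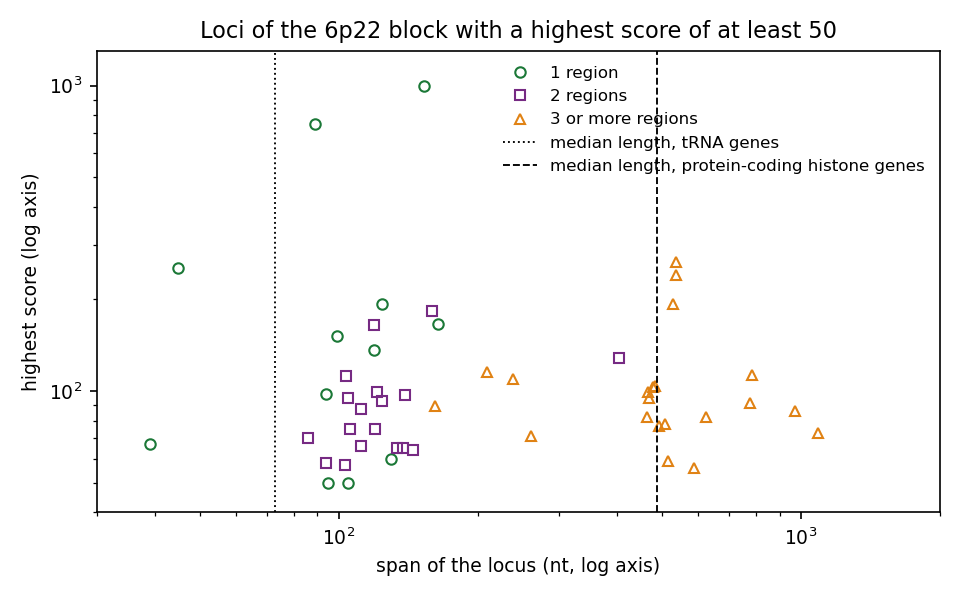
Span in nt (log axis) and highest score (log axis) of the 51 loci of the block with a highest score of at least 50, by number of regions; vertical lines mark the RefSeq median lengths of tRNA genes (73 nt) and protein-coding histone genes (489 nt) on chromosome 6. The 30 short loci lie between 39 and 164 nt and most of the others near 500 nt.

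The short loci lay mostly in the second stretch, which held 22 of the 30. The first stretch held 6 and the third 2. Of the 30, 28 spanned more than the median tRNA gene length of 73 nt, and 17 spanned more than 108 nt, the length of the longest tRNA gene on the chromosome. They consisted of 1 region in 12 loci, of 2 regions in 17 and of 3 regions in 1. Among the 453 other nuclear loci of that size and score, 242 had 1 region, 177 had 2 and 34 had 3 or more. In the 17 loci of 2 regions, 1 to 35 nt (median 15) separated both regions, and the region nearer the 5′ end of the RNA had the higher score in 8. The 5′ and 3′ regions of the locus at 27125884 to 27126042 on the plus strand had scores of 182 and 134. In the locus at 27177619 to 27177737 on the plus strand the scores were 112 and 165, and in that at 27248038 to 27248141 on the minus strand 112 and 1. Neither end was favoured in these counts. Whether short loci coincide with tRNA genes or their precursor ends was not analysed here.

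The middle-sized loci were divided between the first stretch, with 12, and the second, with 8. Regions covered a median of 77.4% of their span, against 57.7% for the 513 other nuclear loci of that size and score. At least 3 regions were present in 19 of the 20 (95%, 76.4 to 99.1), near the background of 91.2%. The highest region alone held over 50% of the summed score in 13 of the 20 (65%, 43.3 to 81.9), against a background of 85.8% (82.5 to 88.5). Its share ran from 34.5% to 95% with a median of 52.3%, against a median of 74.3% elsewhere. At the top of this range, the locus at 26104161 to 26104698 on the plus strand had scores of 13, 265 and 1 from 5′ to 3′. The locus at 27114107 to 27114635 on the minus strand had 192, 21, 61 and 14. In 3 other loci, chosen after their values were seen, the score was divided more evenly. From 5′ to 3′, the locus at 26031808 to 26032343 on the minus strand had scores of 150, 33, 63, 207 and 239. The locus at 26156556 to 26157341 on the plus strand began with 113 and 70, had 3 as its lowest and ended with 52. The locus at 27100096 to 27100575 on the minus strand had scores of 103, 74 and 85. The highest region lay nearer the 5′ end in 12 of the 20 loci and nearer the 3′ end in 8, so no end was preferred in these counts.

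Some loci on opposite strands stood head to head. Among the 129 block loci with a highest score of at least 10, 9 pairs were made of a minus-strand locus and a plus-strand locus that began within 1000 nt above it, so that the RNAs run away from each other. No pair had the opposite arrangement, with RNAs that run toward each other. The Wilson upper limit of that share is 2.89% of the 129 loci. It includes the background of 0.832% of the loci outside the block, so no difference was detectable. Among the 14183 other nuclear loci of that score, 26 pairs ran apart and 60 toward each other. The block thus held 25.7% of the pairs that ran apart. Of its loci, 17 were in such a pair (13.2%, 8.39 to 20.1), with a background of 0.338% (0.255 to 0.448). The pairs were noticed in the data before they were counted, so these values are descriptions. They were not adjusted for how densely loci lie in the block and elsewhere.

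The spacing of these pairs was narrow. In 7 of the 9 pairs less than 300 nt separated both loci, and in 6 of these 7 the distance was 234 to 249 nt. Elsewhere in the nuclear genome 7 pairs had a distance under 300 nt, 4 of them from 234 to 249 nt. The RefSeq spacing of 214 to 247 nt between starts of H2A and H2B genes, as in the sequences shown above, is given beside it as a description. The measures differ: that spacing runs between gene starts, and the distance between loci from edge to edge. It also covers pairs of the whole chromosome and is not limited to the block. At 27100096 to 27100575 on the minus strand and 27100820 to 27101313 on the plus strand, 244 nt apart, the highest scores were 103 and 77. At 27114107 to 27114635 and 27114885 to 27115471, 249 nt apart, they were 192 and 56. At 26123696 to 26124165 and 26124400 to 26124915, 234 nt apart, they were 95 and 59. In these 3 pairs both sides had a score above 50. Those at 26199013 to 26199521 and 26199763 to 26200214, 241 nt apart, had highest scores of 78 and 18.

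The remaining pairs had lower scores on at least 1 side. At 27860479 to 27860963 and 27861210 to 27861667, 246 nt apart, the highest scores were 22 and 42. At 27805665 to 27806160 and 27806321 to 27806454, 160 nt apart, they were 23 and 65. Around the locus at 27775259 to 27775705, with a highest score of 15, plus-strand loci began 249 and 609 nt above its end, with highest scores of 12 and 82. The pair at 26285355 to 26285759 and 26286732 to 26286835 was 972 nt apart, with 128 and 12. Summed over the regions of a locus, the scores of both sides ranged from near equal, 54 against 64 in the pair 246 nt apart, to 216 against 15 in the pair 972 nt apart.

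**Figure D5:**
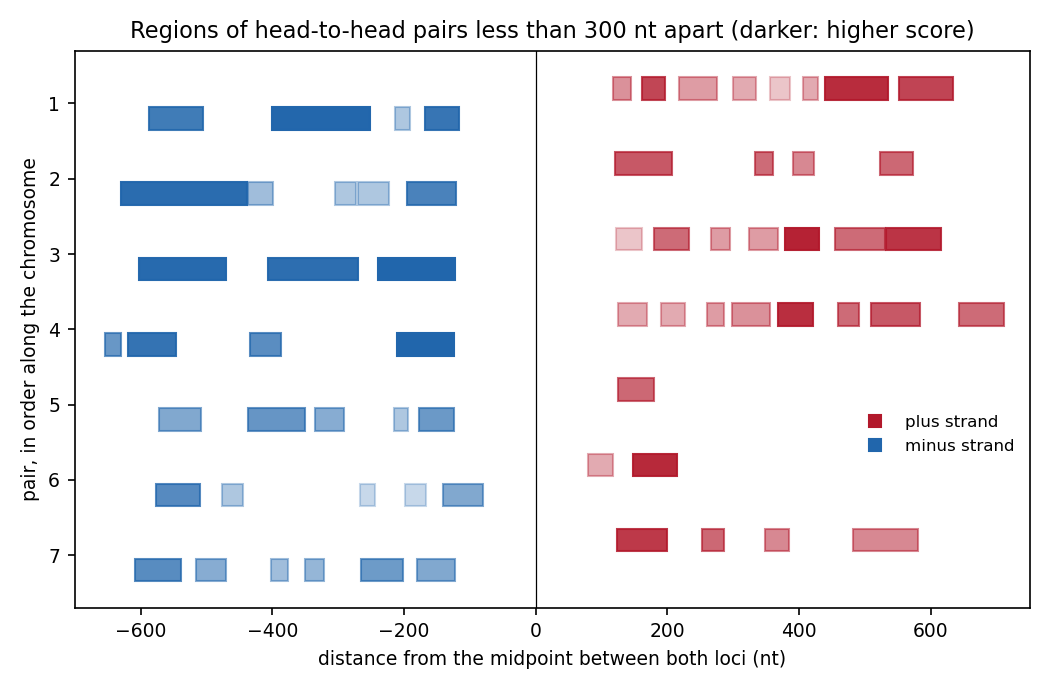
Regions of the 7 head-to-head pairs less than 300 nt apart, drawn by distance in nt from the midpoint between both loci, with minus-strand regions to the left and plus-strand regions to the right; darker colour marks a higher score. In 6 of the 7 pairs the empty centre is 234 to 249 nt wide, and in 1 it is 160 nt.

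Neighbours on opposite strands were more frequent than elsewhere within 1000 nt, but not detectably within 100 nt. A region of the opposite strand lay within 1000 nt of 135 members (16.0%, 13.6 to 18.6), with a background of 4.16% (4.08 to 4.25). Within 100 nt this held for 4 members (0.473%, 0.184 to 1.21), an interval that holds the background of 0.797%. Regions that overlapped or touched one of the opposite strand numbered 2 (0.236%, 0.0649 to 0.858), near the background of 0.314%. They were a single pair, at 27115220 to 27115250 on the plus strand (score 11) and 27115220 to 27115240 on the minus strand (score 2), inside a head-to-head pair. A region of the same strand lay within 1000 nt of 717 members (84.8%, 82.2 to 87.0), with a background of 77.2% (77.0 to 77.4).

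Long runs of regions held a smaller share of the score than of the members. When regions of a strand with at most 1000 nt between them were joined, 16 runs that began in the block held at least 10 regions, 289 regions in all. They held 34.2% of the members but 12.1% of the summed score, and runs of that size elsewhere held 40.4% of other nuclear regions with 52.2% of their score. None of the 16 reached a score of 100, the highest being 86. The Wilson upper limit of that share is 19.4%, which includes the background of 5.53%, so no difference was detectable at this number of runs. Of the 433 members with a score of 3 or less, 175 (40.4%) lay in the long runs, with a background of 33.8%. Such scores made up 60.6% of the members inside long runs and 46.3% of those outside. Among the other nuclear regions they made up 54.0% inside and 71.6% outside. The longest run, on the plus strand from 28120892 to 28127195, held 44 regions over 6304 nt with a median score of 3 and a highest of 9. On the plus strand from 26521428 to 26527588 a run of 27 regions had a median score of 3 and a highest of 28, and on the minus strand from 28346640 to 28350982 another of 27 had a median of 3 and a highest of 73. The limit of 10 regions matters here: the next run, on the minus strand from 26031808 to 26033841 with 9 regions, had a highest score of 239 and a median of 33.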

How the data were processed

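Regions were read from 1 list that the authors deposited for their PAR-CLIP libraries (3 of AGO1 and 1 of AGO2). Per the file headers it is on hg19 and passed a filter whose name includes 0.05. BWA 0.5.8c and hg19 are named in the submitters' processing notes. No source used here names the region caller or says which libraries were pooled. The deposited score is a whole number from the authors, with 7 regions at 1000. Positions are genomic coordinates as deposited, printed counting from 1.

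Members were taken by chromosome and start. Distances were measured from edge to edge. Regions were named by rule: the 12 highest scores, the highest on each strand, the longest run, the highest isolated region (over 1000 nt from any on its strand) and those at the block's edges. Other loci named were chosen after their values were seen, and members, lists and measures were chosen with earlier results of these data known. A planned count by gene class was not run, since it needs an hg19 annotation, which was not used here. Neighbour, locus and position functions were tested on simulated regions, where 4 of 4 measures came back as simulated. Computations used Python 3.11.15 with pandas 2.3.3, numpy 2.4.6 and scipy 1.17.1, and figures matplotlib 3.10.9.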

Additional observations from a re-analysis of the deposited data

How the results depend on the processing

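Of 33 alternatives for 14 results, 10 were chosen after seeing the data, and 21 left the value within its interval, or within 1.5 times for a count. No paired analysis was possible because the list is pooled over libraries. The other 12 mostly change what is counted. With scores of at least 3 the block held 530 regions, 4.53% of them of high score (0.470% elsewhere), and 81.9% had a same-strand neighbour within 1000 nt. Within 100 nt a same-strand neighbour was held by 65.5% of all members, against 53.4% elsewhere. With a high score set at 50 or 200, its share was 7.92% or 0.709%, against 0.889% or 0.0569% elsewhere. At 50 it was 4.38%, 21.4% and 59% of members of 30 to 59, 60 to 100 and over 100 nt. The other nuclear regions of these widths had 0.390%, 3.45% and 22.9%. The isolated share of high-score members was 8.33% beyond 10000 nt, from 2 of 24. The share of other nuclear regions of high score at that distance was not computed, so this value has no background. With scores above 100 set to 100, high-score members held 22.4% of the block's sum. Head-to-head pairs numbered 5 when both loci needed a score of 20, with none of the opposite arrangement, against 9 and 20 elsewhere. With a score of 5 they numbered 11, with 1 of the opposite arrangement, against 102 and 202 elsewhere. The share of short loci, 58.8% against 30.3% elsewhere, was 47.1% against 16.4% when loci were joined over 1000 nt. Depth is unknown, so counting error of the scores could not be given.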

Other observations

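The 1-nt position that the list gives inside each region was not used above. Scaled from 0 at the 5′ edge to 1 at the 3′ edge, its mean over the 846 members was 0.508 (SD 0.198), against 0.517 (SD 0.207) over the other nuclear regions. Members with a score of at least 50 had a mean of 0.476 (SD 0.186, 67 regions), against 0.508 (SD 0.225, 1874 regions). On the plus strand it was 0.463 (SD 0.185, 502 regions) and on the minus strand 0.573 (SD 0.199, 344 regions), where the other nuclear regions had 0.455 and 0.582. These differences between block and other regions were small beside the spread between regions and were not tested. The ID numbers from the first to the last member left 11 numbers unused.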
